A study of Mus musculus with 16 samples.

Results

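The type I interferon response genes are a set of 34 named genes that cells switch on when type I interferon reaches them. Members were matched by gene symbol to probesets annotated to exactly 1 symbol, and 33 of the 34 were measured, out of 30142 genes on the array. Ifi44 was not analysed here, and each measured member had 1 probeset. RNA came from glomerular extracts of the kidney cortex of 16 female mice, hybridised to 16 arrays, 1 per mouse. The mice were C57Bl/6 wild type, or B6.ERαKO animals that lack oestrogen receptor alpha on the same background, called knockout below. Each genotype had 4 groups of 2 mice, namely untreated and 18 hours, 6 days or 2 weeks past an intraperitoneal dose of sheep nephrotoxic serum (8 ul per g). Antibodies in this serum bind the basement membrane of the glomerulus, which inflames it. The question of the series is what oestrogen receptor alpha does in that disease. No source used here gives the way the receptor gene was deleted, the cells it was deleted in or the ages of the mice.

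Type I interferons are the interferon alphas, interferon beta and a few relatives. They bind the receptor Ifnar1 and Ifnar2, the kinases Jak1 and Tyk2 become active and Stat2 is phosphorylated, and a complex that holds Stat2 and Irf9 binds interferon-stimulated response elements in promoters. The genes so induced encode RNA sensors, enzymes that block viral replication, a ubiquitin-like modifier and feedback inhibitors. In the kidney these genes are best known from lupus nephritis, in which they are often raised.

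The response element itself is shown in 5 member promoters. These belong to the members whose values are given for each array below and that hold a match within the 230 bases before the start site. The letters searched were GAAA, any 2 bases and GAAA again, or TTTC, any 2 bases and TTTC on the other strand. They occurred in 3.44% of 32851 promoters of 300 bases, 250 before and 50 after the start, taken from RefSeq on GRCm38.p6. By gene the share was 3.99% of 27025 genes. Of the member genes 24 had a promoter in this table, and 11 of them (45.8%) held the element. The 230 bases before the start are printed below, 5′ to 3′ along the gene, in lower case with the matches in capitals. Where 2 matches overlap, the capitals run together.
Oas1a: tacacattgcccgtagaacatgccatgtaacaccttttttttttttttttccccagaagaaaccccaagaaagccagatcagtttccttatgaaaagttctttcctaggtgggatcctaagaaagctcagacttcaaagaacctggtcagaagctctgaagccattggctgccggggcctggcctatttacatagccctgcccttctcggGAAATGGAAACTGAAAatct
Bst2: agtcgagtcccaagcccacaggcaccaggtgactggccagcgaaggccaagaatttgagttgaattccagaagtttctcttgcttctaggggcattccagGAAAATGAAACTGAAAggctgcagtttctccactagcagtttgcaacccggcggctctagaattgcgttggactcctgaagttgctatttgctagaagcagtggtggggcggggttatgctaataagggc
Ifit1: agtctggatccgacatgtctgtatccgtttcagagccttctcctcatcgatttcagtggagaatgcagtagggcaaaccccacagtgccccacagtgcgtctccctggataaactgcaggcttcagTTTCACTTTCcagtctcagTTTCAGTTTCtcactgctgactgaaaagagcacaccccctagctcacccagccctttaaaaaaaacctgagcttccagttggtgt
Stat2: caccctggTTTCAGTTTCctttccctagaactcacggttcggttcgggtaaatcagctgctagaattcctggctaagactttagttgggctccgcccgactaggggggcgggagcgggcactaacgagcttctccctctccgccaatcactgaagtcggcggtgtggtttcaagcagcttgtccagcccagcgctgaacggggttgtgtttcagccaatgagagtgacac
Rsad2: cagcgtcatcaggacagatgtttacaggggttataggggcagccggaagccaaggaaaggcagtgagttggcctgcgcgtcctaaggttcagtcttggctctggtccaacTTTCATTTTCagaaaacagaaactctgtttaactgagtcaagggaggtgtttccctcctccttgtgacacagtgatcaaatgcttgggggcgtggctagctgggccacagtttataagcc
These lie at chr5:120907526-120907755 (minus strand, Oas1a), chr8:71537473-71537702 (minus, Bst2), chr19:34640659-34640888 (plus, Ifit1), chr10:128270268-128270497 (plus, Stat2) and chr12:26456453-26456682 (minus, Rsad2). Oas1a and Bst2 each held 2 overlapping matches, at -20 to -5 and at -130 to -115 from the start. Ifit1 held 2 separate matches, at -104 to -95 and -85 to -76. Isg15 held 3 overlapping matches between -78 and -57, and Ifit3 held 2. In Ifih1, Ddx58, Ifitm3 and Eif2ak2 the matches lay after the start. No match was found in any member that passes the test below in wild type at 2 weeks. Of these, Irf7, Irf9 and Xaf1 had a promoter in the table and held none. Oas2, Mx1, Mx2, Dhx58, Parp9 and Parp14 had no promoter in it and could not be searched. A match is a run of letters and was not tested as a binding site.

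Several facts of the arrays bear on every value below. Values are the deposited log2 values. They reached 19.93, and 152 genes had a mean above what a 16-bit scanner can give, so some unstated transformation was applied and differences are given in deposited log2 units rather than as folds of RNA. The Esr1 probeset, for the gene named in the knockout, read 6.35 to 7.53 in wild type and 7.11 to 7.64 in knockout arrays, so it was not lower in knockout, and the stretch it covers is not given. Its highest wild type value (7.53) and its lowest knockout value (7.11) were on the 18-hour replicate 2 arrays, and no other wild type array reached any other knockout array. Abcc3, a kidney exporter that otherwise split the genotypes, put both 18-hour replicate 2 arrays with the other genotype, at 6.25 in the array labelled wild type and 12.93 in the array labelled knockout, against 13.09 and 6.50 in replicates 1. Knockout 2 weeks replicate 1 lacked the injury response seen in replicate 2, with the tubule injury marker Havcr1 at 7.17 against 12.77. Comparisons that rest on these arrays are given with and without them, and group means are given with each array's value. Podocyte markers, which define the glomerulus, had list means of 9.29 to 11.45 with 9 of 12 genes measured, and proximal tubule markers had list means of 13.51 to 16.53, so the extracts also held tubule RNA. In such bulk RNA, fewer cells of a type and less RNA per cell cannot be told apart.

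The mean over the 33 members was highest in wild type mice at 2 weeks and 6 days after serum and lowest in untreated knockout mice. It was 7.72 ± 0.07 (SD, n = 2, as for all group means here) in wild type at 2 weeks and 7.60 ± 0.06 at 6 days. Knockout at 6 days followed with 7.21 ± 0.17, and then untreated wild type with 7.12 ± 0.04. The last 4 groups were wild type at 18 hours (7.08 ± 0.14), knockout at 18 hours (7.05 ± 0.26), knockout at 2 weeks (7.01 ± 0.40) and untreated knockout (6.96 ± 0.07). By array, wild type read 7.77 and 7.67 at 2 weeks and 7.64 and 7.56 at 6 days, above every other array. The other wild type arrays read 7.08 and 7.15 untreated and 7.17 and 6.98 at 18 hours. The knockout arrays read 7.02 and 6.91 untreated, 6.87 and 7.24 at 18 hours, 7.09 and 7.33 at 6 days and 6.73 and 7.29 at 2 weeks. The lowest array of all was therefore knockout 2 weeks replicate 1. Wild type at 2 weeks and 6 days did not overlap as deposited, but did after each array was centred on its median (7.45 to 7.69 and 7.59 to 7.61). The order of the other 6 groups rests on overlapping or adjoining ranges.

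Single members followed the mean. Wild type at 2 weeks was the highest group for 22 members, wild type at 6 days for 10 and knockout at 6 days for 1, while untreated knockout was the lowest group for 18. Knockout 2 weeks replicate 1 was the lowest of the 16 arrays for 16 members.

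**Figure D1:**
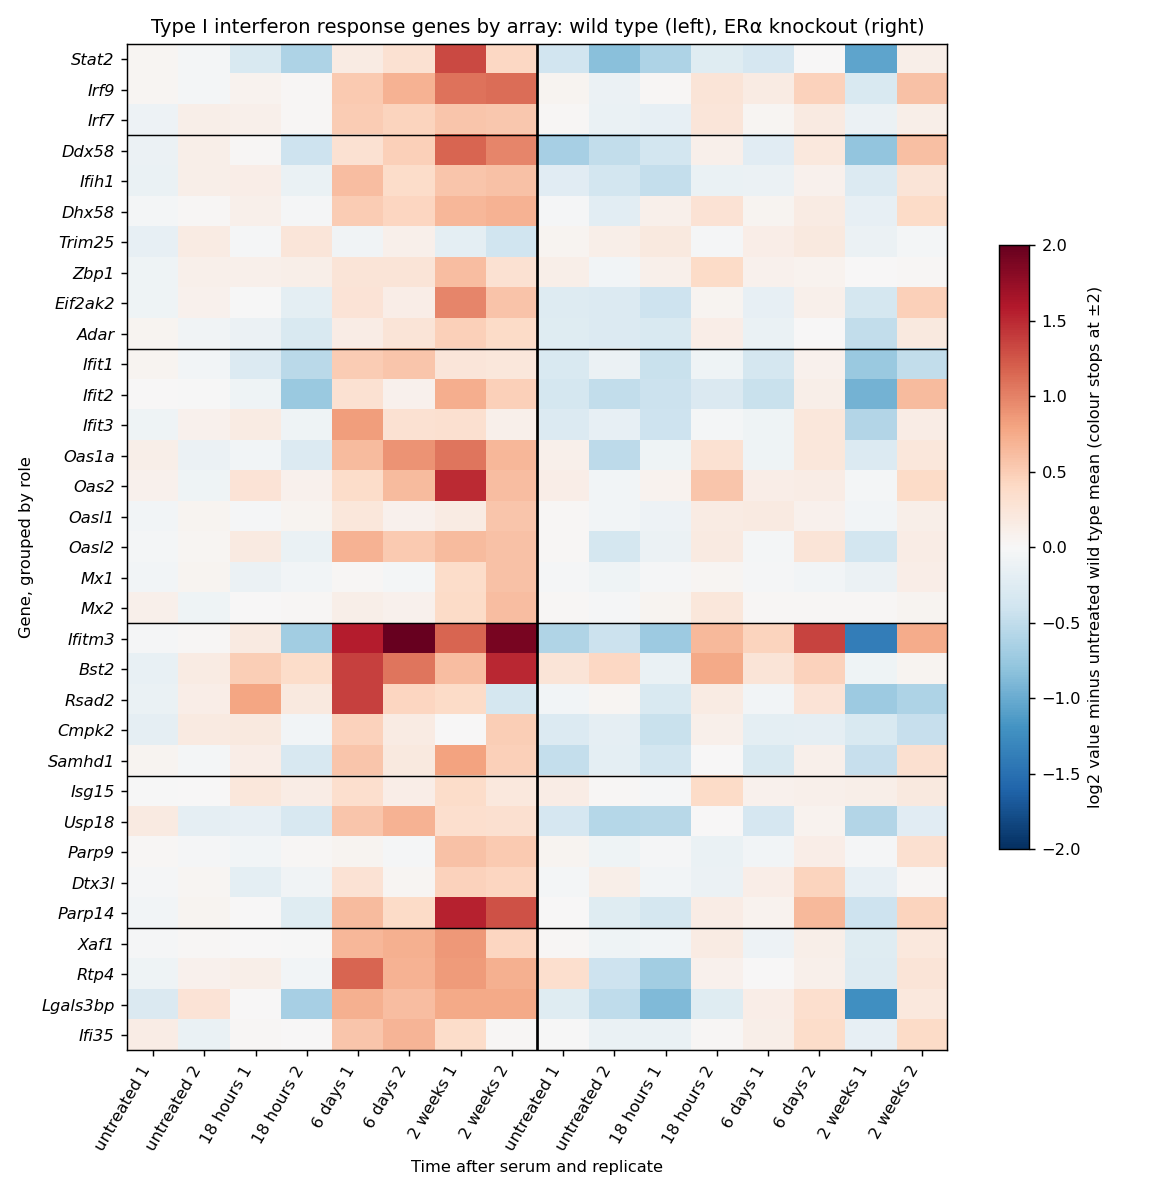
Colour shows each member's deposited log2 value minus its mean in untreated wild type mice, with 1 row per member, grouped by role, and 1 column per array (wild type left, knockout right, replicates 1 and 2 side by side). The wild type columns at 6 days and 2 weeks are mostly red, and the knockout 2 weeks replicate 1 column is mostly blue.

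Of the 3 transcription factors, Irf9, which gives the complex with Stat2 its DNA specificity, rose in wild type at 2 weeks. Irf9 stood at 7.67 and 7.59 in the untreated wild type mice, 7.70 and 7.65 at 18 hours, 8.15 and 8.32 at 6 days and 8.72 and 8.74 at 2 weeks. In the knockout mice the values were 7.69 and 7.52 untreated, 7.66 and 7.88 at 18 hours, 7.79 and 8.09 at 6 days and 7.32 and 8.21 at 2 weeks. Both wild type arrays at 2 weeks lay above all others, and the knockout pair at 2 weeks lay far apart. The difference in wild type at 2 weeks was 1.10 ± 0.23 (SE; limma adjusted p = 0.0243), and in knockout 0.15 ± 0.23 (adjusted p = 0.907). Irf7, which amplifies the production of interferon, also rose at 2 weeks in wild type. Irf7 read 6.09 and 6.30 in the untreated wild type mice, 6.29 and 6.21 at 18 hours, 6.69 and 6.63 at 6 days and 6.75 and 6.73 at 2 weeks. The knockout arrays read 6.22 and 6.06 untreated, 6.02 and 6.43 at 18 hours, 6.23 and 6.37 at 6 days and 6.07 and 6.30 at 2 weeks. The 4 wild type arrays at 6 days and 2 weeks were the 4 highest, and the difference at 2 weeks was 0.55 ± 0.14 (adjusted p = 0.043). Stat2, the partner that activates transcription in the complex, did not pass. Stat2 was 9.05 and 8.97 in the untreated wild type mice, 8.70 and 8.40 at 18 hours, 9.18 and 9.31 at 6 days and 10.33 and 9.43 at 2 weeks. In knockout it was 8.63 and 8.17 untreated, 8.40 and 8.76 at 18 hours, 8.68 and 9.02 at 6 days and 7.95 and 9.12 at 2 weeks. Its 2 wild type arrays at 2 weeks differed by nearly a unit, and the difference there was 0.87 ± 0.37 (adjusted p = 0.142). All knockout untreated, 6-day and 2-week values of Stat2 were below the wild type values of the same time.

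Among the sensors of viral RNA, Dhx58, a helicase that modulates the other sensors, rose in wild type at 2 weeks. Dhx58 stood at 5.71 and 5.78 in the untreated wild type mice, 5.85 and 5.72 at 18 hours, 6.26 and 6.18 at 6 days and 6.42 and 6.44 at 2 weeks. Among knockout mice it stood at 5.73 and 5.54 untreated, 5.85 and 6.04 at 18 hours, 5.80 and 5.91 at 6 days and 5.59 and 6.14 at 2 weeks. The 2-week difference was 0.68 ± 0.16 in wild type (adjusted p = 0.0298) and 0.23 ± 0.16 in knockout (adjusted p = 0.722). Ddx58 encodes the sensor RIG-I. Ddx58 read 8.60 and 8.84 in the untreated wild type mice, 8.75 and 8.31 at 18 hours, 9.03 and 9.19 at 6 days and 9.88 and 9.70 at 2 weeks. The knockout mice read 8.05 and 8.23 untreated, 8.36 and 8.82 at 18 hours, 8.50 and 8.93 at 6 days and 7.93 and 9.32 at 2 weeks. The wild type arrays at 2 weeks were the 2 highest, and the knockout pair at 2 weeks held both the lowest and the third highest of all 16 values. Its difference at 2 weeks was 1.07 ± 0.36 in wild type (adjusted p = 0.0834) and 0.48 ± 0.36 in knockout (adjusted p = 0.757). Ifih1 encodes the related sensor MDA5. Ifih1 was 7.36 and 7.61 in the untreated wild type mice, 7.63 and 7.36 at 18 hours, 8.11 and 7.86 at 6 days and 8.04 and 8.08 at 2 weeks. Its knockout values were 7.26 and 7.12 untreated, 7.01 and 7.36 at 18 hours, 7.38 and 7.58 at 6 days and 7.21 and 7.74 at 2 weeks. The wild type arrays at 6 days and 2 weeks again held the 4 highest values, with a 2-week difference of 0.57 ± 0.19 (adjusted p = 0.0843).

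Eif2ak2 encodes the kinase PKR, which stops translation when it binds double-stranded RNA. Eif2ak2 stood at 7.97 and 8.14 in the untreated wild type mice, 8.04 and 7.86 at 18 hours, 8.32 and 8.18 at 6 days and 9.03 and 8.62 at 2 weeks. The knockout pairs stood at 7.80 and 7.78 untreated, 7.63 and 8.10 at 18 hours, 7.89 and 8.15 at 6 days and 7.70 and 8.53 at 2 weeks. It was highest on wild type 2 weeks replicate 1, and the difference there was 0.77 ± 0.25 (adjusted p = 0.0793). Adar edits adenosines in double-stranded RNA. Adar read 8.21 and 8.08 in the untreated wild type mice, 8.04 and 7.84 at 18 hours, 8.30 and 8.40 at 6 days and 8.63 and 8.53 at 2 weeks. Knockout readings were 7.91 and 7.88 untreated, 7.85 and 8.28 at 18 hours, 8.01 and 8.16 at 6 days and 7.66 and 8.35 at 2 weeks. Its wild type difference at 2 weeks was 0.43 ± 0.21 (adjusted p = 0.183). Zbp1, a sensor of nucleic acid in the Z form, ran from 5.45 to 6.16 over the 16 arrays, with its highest value on wild type 2 weeks replicate 1 (2-week difference 0.46 ± 0.13, adjusted p = 0.0516). Trim25, the ubiquitin ligase that modifies RIG-I, ran from 10.23 to 10.87 and was the member with the opposite sign. It was lower at 2 weeks in wild type by -0.30 ± 0.17 (adjusted p = 0.247), and both arrays lay below both untreated ones.

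The Ifit, Oas and Mx families encode proteins that bind viral RNA, make the oligoadenylate that activates RNase L, and block viral nucleoproteins. Of these families Oas2, Mx1 and Mx2 rose in wild type at 2 weeks. Oas2 stood at 5.60 and 5.44 in the untreated wild type mice, 5.80 and 5.61 at 18 hours, 5.89 and 6.16 at 6 days and 7.01 and 6.14 at 2 weeks. In the knockout mice the values were 5.65 and 5.47 untreated, 5.59 and 6.07 at 18 hours, 5.66 and 5.67 at 6 days and 5.48 and 5.90 at 2 weeks. Its wild type pair at 2 weeks was spread widely, and the difference was 1.05 ± 0.26 (adjusted p = 0.0354). Mx2 showed its change at 2 weeks, with little before. Mx2 read 5.84 and 5.65 in the untreated wild type mice, 5.75 and 5.76 at 18 hours, 5.86 and 5.83 at 6 days and 6.12 and 6.35 at 2 weeks. Values in knockout were 5.76 and 5.72 untreated, 5.79 and 5.97 at 18 hours, 5.76 and 5.76 at 6 days and 5.76 and 5.79 at 2 weeks. Mx1, a gene that carries a deletion in C57BL/6 mice and was dim here, followed the same course. Mx1 was 4.63 and 4.74 in the untreated wild type mice, 4.57 and 4.64 at 18 hours, 4.72 and 4.65 at 6 days and 5.06 and 5.28 at 2 weeks. Knockout arrays had 4.67 and 4.60 untreated, 4.67 and 4.73 at 18 hours, 4.67 and 4.64 at 6 days and 4.57 and 4.82 at 2 weeks. Both Mx1 and Mx2 had a 2-week difference of 0.49 ± 0.11 in wild type (adjusted p = 0.0274 and 0.0265), and 0.056 ± 0.11 and 0.037 ± 0.11 in knockout. The wild type 2-week arrays were the 2 highest of all for both genes.

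Ifit1 had its highest values at 6 days. Ifit1 stood at 6.48 and 6.37 in the untreated wild type mice, 6.15 and 5.89 at 18 hours, 6.94 and 6.98 at 6 days and 6.67 and 6.65 at 2 weeks. Among knockout mice it stood at 6.13 and 6.31 untreated, 5.98 and 6.34 at 18 hours, 6.08 and 6.52 at 6 days and 5.69 and 5.93 at 2 weeks. The wild type arrays at 6 days were the 2 highest, those at 2 weeks the next highest, and the knockout arrays at 2 weeks lay below both untreated knockout arrays. The difference in wild type was 0.54 ± 0.17 at 6 days (adjusted p = 0.514) and 0.23 ± 0.17 at 2 weeks (adjusted p = 0.363), and in knockout -0.41 ± 0.17 at 2 weeks (adjusted p = 0.568). Ifit2 was highest in wild type at 2 weeks and was spread most widely in knockout at that time. Ifit2 read 7.76 and 7.75 in the untreated wild type mice, 7.67 and 7.02 at 18 hours, 8.06 and 7.85 at 6 days and 8.49 and 8.23 at 2 weeks. The knockout arrays read 7.41 and 7.27 untreated, 7.33 and 7.47 at 18 hours, 7.31 and 7.88 at 6 days and 6.81 and 8.39 at 2 weeks. Its knockout pair at 2 weeks held the lowest value of the 16 and the second highest. Ifit3 ran from 6.60 on knockout 2 weeks replicate 1 to 8.03 on wild type 6 days replicate 1.

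Oas1a, whose promoter is printed above, was higher at both later times in wild type without passing the test. Oas1a was 6.77 and 6.54 in the untreated wild type mice, 6.61 and 6.39 at 18 hours, 7.30 and 7.56 at 6 days and 7.73 and 7.33 at 2 weeks. In knockout it was 6.76 and 6.14 untreated, 6.58 and 6.96 at 18 hours, 6.58 and 6.89 at 6 days and 6.39 and 6.88 at 2 weeks. The 4 wild type arrays at 6 days and 2 weeks lay above all others, with differences of 0.77 ± 0.25 at 6 days (adjusted p = 0.518) and 0.87 ± 0.25 at 2 weeks (adjusted p = 0.0549). Oasl2, an Oas relative, behaved alike. Oasl2 read 6.08 and 6.16 in the untreated wild type mice, 6.30 and 5.99 at 18 hours, 6.82 and 6.64 at 6 days and 6.75 and 6.71 at 2 weeks. The knockout mice read 6.15 and 5.77 untreated, 6.00 and 6.30 at 18 hours, 6.08 and 6.37 at 6 days and 5.75 and 6.27 at 2 weeks. The 4 wild type arrays at 6 days and 2 weeks were again the highest, with 0.61 ± 0.20 at each time (adjusted p = 0.523 and 0.0756). Oasl1, a translational inhibitor of Irf7, was dim and ran from 5.04 to 5.70.

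Proteins that act on the virion or on nucleotides included the largest difference of the set, and none of them passed. Ifitm3 blocks fusion of virus with endosomal membranes. Ifitm3 stood at 8.16 and 8.20 in the untreated wild type mice, 8.36 and 7.49 at 18 hours, 9.75 and 10.34 at 6 days and 9.35 and 10.08 at 2 weeks. The knockout pairs stood at 7.58 and 7.75 untreated, 7.45 and 8.83 at 18 hours, 8.63 and 9.53 at 6 days and 6.80 and 8.92 at 2 weeks. Both wild type arrays at 6 days and at 2 weeks lay above both untreated ones by more than a unit, and knockout was intermediate at 6 days. The difference at 6 days was 1.86 ± 0.64 in wild type (adjusted p = 0.549) and 1.42 ± 0.64 in knockout (adjusted p = 0.666). Bst2, or tetherin, holds budding virions on the cell. Bst2 read 6.95 and 7.26 in the untreated wild type mice, 7.59 and 7.47 at 18 hours, 8.47 and 8.17 at 6 days and 7.71 and 8.60 at 2 weeks. Knockout readings were 7.36 and 7.52 untreated, 6.97 and 7.86 at 18 hours, 7.35 and 7.56 at 6 days and 7.02 and 7.15 at 2 weeks. In wild type the difference was 1.22 ± 0.30 at 6 days (adjusted p = 0.396) and 1.05 ± 0.30 at 2 weeks (adjusted p = 0.0569). In knockout it was 0.015 ± 0.30 and -0.36 ± 0.30, and the knockout arrays at 2 weeks lay below both untreated ones.

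Rsad2, or viperin, makes a nucleotide analogue that ends viral RNA chains. Rsad2 was 8.51 and 8.78 in the untreated wild type mice, 9.44 and 8.85 at 18 hours, 10.01 and 9.08 at 6 days and 9.03 and 8.30 at 2 weeks. Its knockout values were 8.60 and 8.69 untreated, 8.34 and 8.81 at 18 hours, 8.60 and 8.93 at 6 days and 7.93 and 8.03 at 2 weeks. Its highest value was on wild type 6 days replicate 1, and at 2 weeks the wild type pair straddled the untreated pair (difference 0.022 ± 0.33). Cmpk2, a nucleotide kinase encoded next to Rsad2, ran from 7.40 on knockout 2 weeks replicate 2 to 8.35 on wild type 2 weeks replicate 2. Samhd1, which degrades deoxynucleotides, ran from 7.92 in untreated knockout to 9.21 in wild type at 2 weeks.

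Among the modifier enzymes Parp14, a mono-ADP-ribosyltransferase, had the largest rise that passed in the set. Parp14 stood at 7.16 and 7.26 in the untreated wild type mice, 7.21 and 6.97 at 18 hours, 7.84 and 7.60 at 6 days and 8.75 and 8.48 at 2 weeks. In the knockout mice the values were 7.21 and 6.96 untreated, 6.86 and 7.36 at 18 hours, 7.28 and 7.86 at 6 days and 6.79 and 7.65 at 2 weeks. The wild type arrays at 2 weeks were the 2 highest, with a difference of 1.41 ± 0.28 (adjusted p = 0.0213), against 0.14 ± 0.28 in knockout (adjusted p = 0.94). Parp9, an ADP-ribosyltransferase that works as a pair with the ubiquitin ligase Dtx3l, rose as well. Parp9 read 6.83 and 6.77 in the untreated wild type mice, 6.75 and 6.83 at 18 hours, 6.85 and 6.78 at 6 days and 7.38 and 7.32 at 2 weeks. Values in knockout were 6.86 and 6.71 untreated, 6.77 and 6.66 at 18 hours, 6.75 and 6.94 at 6 days and 6.77 and 7.12 at 2 weeks. The difference was 0.55 ± 0.13 (adjusted p = 0.0324). Dtx3l ran from 6.20 to 6.85, with both wild type arrays at 2 weeks and 1 knockout array at 6 days as the 3 highest and a difference of 0.44 ± 0.13 (adjusted p = 0.066).

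Usp18 removes the modifier Isg15 from proteins and damps the interferon receptor. Usp18 was 7.07 and 6.71 in the untreated wild type mice, 6.72 and 6.57 at 18 hours, 7.45 and 7.59 at 6 days and 7.22 and 7.21 at 2 weeks. Knockout arrays had 6.56 and 6.32 untreated, 6.34 and 6.90 at 18 hours, 6.55 and 6.96 at 6 days and 6.31 and 6.67 at 2 weeks. Its 4 highest values were the wild type arrays at 6 days and 2 weeks, with a difference of 0.64 ± 0.21 at 6 days (adjusted p = 0.534). Isg15 itself was dim, from 5.37 to 5.78, and its highest value was on knockout 18 hours replicate 2.

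The remaining members have other or less settled roles. Xaf1, which promotes apoptosis, rose in wild type at 2 weeks by 0.66 ± 0.18 (adjusted p = 0.047). Xaf1 stood at 7.38 and 7.43 in the untreated wild type mice, 7.42 and 7.40 at 18 hours, 8.08 and 8.12 at 6 days and 8.28 and 7.84 at 2 weeks. Among knockout mice it stood at 7.44 and 7.33 untreated, 7.35 and 7.57 at 18 hours, 7.31 and 7.53 at 6 days and 7.16 and 7.62 at 2 weeks. The wild type arrays at 6 days were as far above untreated as those at 2 weeks (0.69 ± 0.18, adjusted p = 0.407). Rtp4 encodes a chaperone of membrane receptors. Rtp4 read 6.34 and 6.50 in the untreated wild type mice, 6.54 and 6.37 at 18 hours, 7.59 and 7.11 at 6 days and 7.27 and 7.13 at 2 weeks. The knockout arrays read 6.75 and 6.01 untreated, 5.72 and 6.50 at 18 hours, 6.43 and 6.52 at 6 days and 6.16 and 6.67 at 2 weeks. Its 4 highest values were the wild type arrays at 6 days and 2 weeks (0.93 ± 0.29 at 6 days, adjusted p = 0.502). Lgals3bp encodes a secreted glycoprotein that binds galectins. Lgals3bp was 7.82 and 8.39 in the untreated wild type mice, 8.11 and 7.44 at 18 hours, 8.82 and 8.72 at 6 days and 8.87 and 8.87 at 2 weeks. In knockout it was 7.87 and 7.60 untreated, 7.22 and 7.87 at 18 hours, 8.24 and 8.44 at 6 days and 6.89 and 8.32 at 2 weeks. Its lowest value, on knockout 2 weeks replicate 1, was nearly 2 units under the wild type arrays of that time. Ifi35, a binding partner of Nmi, ran from 7.46 to 8.31 and was highest on wild type 6 days replicate 2.

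**Figure D2:**
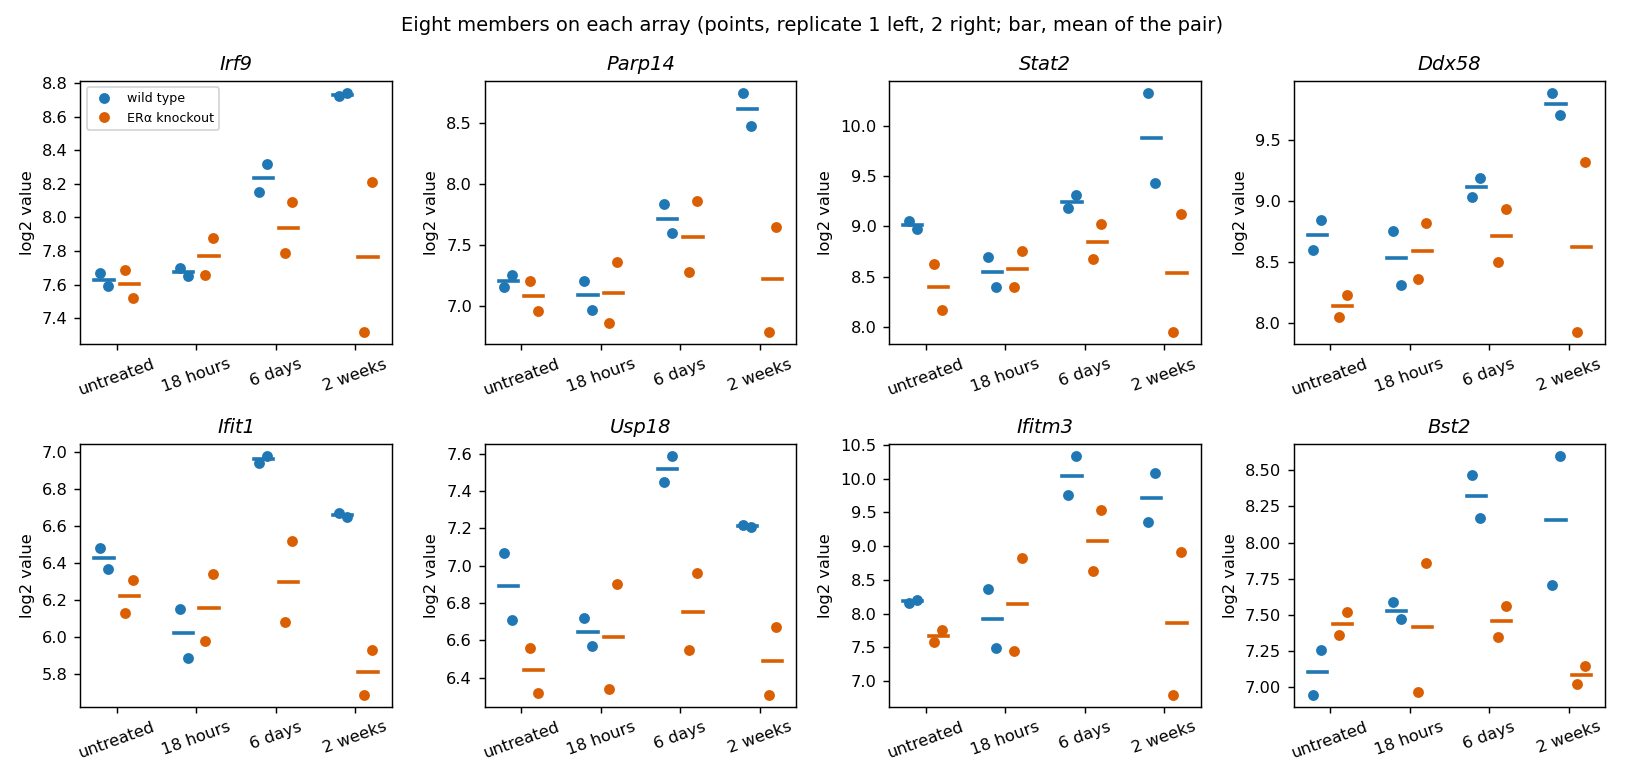
Deposited log2 values of 8 members on each array (blue wild type, orange knockout, replicate 1 left and 2 right in each pair, bar for the mean of the pair) against time after serum. Irf9, Parp14, Stat2 and Ddx58 are highest in wild type at 2 weeks, Ifit1 and Usp18 in wild type at 6 days, and the knockout points at 2 weeks lie far apart except for Ifit1, Usp18 and Bst2.

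The first comparison asks how the members responded to serum in wild type mice, and 9 of 33 rose at 2 weeks. These were Irf9, Irf7, Dhx58, Oas2, Mx1, Mx2, Xaf1, Parp9 and Parp14, and no member fell. A gene is called here at a limma adjusted p under 0.05 over all 30142 genes, and 8.04% of all genes were called in this comparison, 4.81% as higher and 3.23% as lower. The difference was positive for 32 of 33 members, with a median of 0.57, against a median of 0.13 over all genes. At an unadjusted p under 0.05 it was 22 members, all higher, against 19.9% of all genes. In 29 members both wild type arrays at 2 weeks lay above both untreated arrays, against 39.1% of all genes, and in 1 (Trim25) below, against 20% of them.

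The scaling of the arrays and other alternatives, listed with the processing, moved these calls. Of up to 26 alternatives per gene, Xaf1 lost its call in 20, Irf7 in 17, Oas2 in 12 and Parp9 in 10. Dhx58, Mx1 and Mx2 each lost it in 8, Irf9 in 5 and Parp14 in 3. Median centring took the median of all genes at 2 weeks from 0.13 to -0.08 and quantile normalization took it to 0.0021, and the share of called genes that were higher went from 59.8% to 17.2% and 51.3%. Each left 2 of 33 members called, Irf9 and Parp14, against 10.9% of all genes after median centring and 4.03% after quantile normalization. Counted in either direction, the share of members called under these scalings was thus near that of all genes. Both members were called higher. Of the 30142 genes, 566 were called higher and 2725 lower after median centring, and 623 and 591 after quantile normalization. Irf9 was at 0.89 ± 0.25 (adjusted p = 0.043) and Parp14 at 1.20 ± 0.29 (adjusted p = 0.0297) after median centring. The difference stayed positive for 30 members under median centring and for 33 under quantile normalization, with medians of 0.37 and 0.48. Of the arrays, leaving out both 18-hour replicates 2 gave 1 call (Parp14, 2.85% of all genes), and leaving out knockout 2 weeks replicate 1 as well gave 18 (12.9% of all genes), none of these arrays being among the groups compared. Without untreated wild type replicate 1 or replicate 2 the count was 0, at 0.106% and 0.0% of all genes, and without wild type 2 weeks replicate 2 it was 1, at 0.766%. It was 5 without either untreated knockout array (3.95% of all genes) and 17 without either knockout 2-week array (15.5%).

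At 6 days no member passed in wild type. Of all genes 0.0% were called. The difference was positive for 32 of 33 members with a median of 0.47, against 0.031 over all genes, and for 30 members under median centring and under quantile normalization. At an unadjusted p under 0.05 it was 15 members, all higher, against 4.58% of all genes. Both arrays lay above both untreated arrays in 27 members, against 25.3% of all genes, and 26 after median centring. For such overlap after median centring, here and below, the share of all genes was not counted. The 3 members with the largest differences were Ifitm3, Bst2 and Rtp4, given above.

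From 6 days to 2 weeks the members in wild type did not all move the same way. In 15 members both 2-week arrays lay above both 6-day arrays, among them Irf9, Stat2, Ddx58, Mx1, Mx2, Parp9 and Parp14, against 30.8% of all genes. In 5 members they lay below, Ifit1, Rsad2, Usp18, Ifi35 and Trim25, against 21.2% of all genes. After median centring the counts were 7 and 6, with no share of all genes to set beside them. This step was described by overlap and not tested.

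At 18 hours no member passed in wild type or in knockout, at 0.0% of all genes called in each. The median difference was 0.0061 in wild type, with 17 members positive, and 0.074 in knockout, with 23 positive. At an unadjusted p under 0.05 there was 1 member in wild type (Ifit1, lower, against 1.98% of all genes) and 0 in knockout. The replicates disagreed here. Knockout replicate 1 lay below wild type replicate 1 in 27 of 33 members, against 41.7% of all genes, and knockout replicate 2 lay above wild type replicate 2 in 28, against 53.2%. Replicates 2 are the arrays whose Abcc3 level goes against their labels. Without both of them the median response at 18 hours was 0.027 in wild type and -0.071 in knockout, each resting on 1 array, with 0 members called.

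In knockout mice no member passed at 6 days, where 0.0133% of all genes were called, or at 2 weeks, where 0.109% were. At 6 days the difference was positive for 33 of 33 members, with a median of 0.22 against 0.0018 over all genes, and for 28 under median centring and under quantile normalization. At an unadjusted p under 0.05 it was 1 member, higher, against 4.56% of all genes. Both arrays lay above both untreated arrays in 17 members, against 23.3% of all genes. The pair was uneven here too. Replicate 2 read above replicate 1 in 29 of 33 members, by a median of 0.22, while 45.3% of all genes were higher in replicate 2. Over the mean of the untreated knockout arrays, the median member stood 0.10 higher on replicate 1 and 0.30 higher on replicate 2.

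At 2 weeks the knockout members gave no common value, because the pair of arrays went apart. The median difference was 0.056, with 25 members positive, and 1 member (Ifit1) was at an unadjusted p under 0.05, lower, against 2.81% of all genes. Replicate 2 read above replicate 1 in 32 of 33 members, by a median of 0.49, while 41.5% of all genes were higher in replicate 2. Replicate 1 lay below both untreated knockout arrays in 21 members (31.9% of all genes) and above both in 0 (43.5%). Replicate 2 lay above both in 25 members (40.7% of all genes) and below both in 5 (38.5%). Without replicate 1 and the 2 doubted 18-hour arrays, the median difference was 0.34 and 2 members were called, against 4.35% of all genes. These were Ddx58 at 1.18 ± 0.22 (limma adjusted p = 0.0283) and Ifit2 at 1.05 ± 0.24 (adjusted p = 0.0459), each resting on a single knockout array at 2 weeks. Both arrays lay below both untreated arrays in 5 members, Ifit1, Rsad2, Bst2, Cmpk2 and Trim25, against 14.6% of all genes.

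The comparison of genotypes asks whether the members differ without the receptor. Averaged over the 4 times, 32 of 33 members read lower in knockout, and none passed the test. The median difference was -0.35, against -0.0082 over all genes, and ran from -0.78 for Ifitm3 to 0.11 for Trim25. Of all genes 0.0% were called. At an unadjusted p under 0.05 it was 22 members, all lower, against 6.89% of all genes, and 32 members stayed negative under median centring and under quantile normalization. Usp18 was at -0.49 ± 0.11 and Ifit1 at -0.40 ± 0.085 (adjusted p = 0.225 for each, the smallest in the set).

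Without both 18-hour replicate 2 arrays Ifit1 and Usp18 were lower in knockout by a called difference. Ifit1 was at -0.47 ± 0.088 and Usp18 at -0.58 ± 0.11 (limma adjusted p = 0.0358 for each), and 1.72% of all genes were called. Without any 18-hour array the same genes were called, at -0.57 ± 0.091 (adjusted p = 0.0208) and -0.65 ± 0.11 (adjusted p = 0.0279), with 1.49% of all genes. With knockout 2 weeks replicate 1 left out as well as the 18-hour pair, 4 members were called, Ifit1, Usp18, Ifih1 and Lgals3bp, with 2.61% of all genes. Ifih1 was then at -0.43 ± 0.085 (adjusted p = 0.0351) and Lgals3bp at -0.56 ± 0.11 (adjusted p = 0.0402). Without knockout 2 weeks replicate 2, in contrast, 19 members were called over the other 15 arrays, against 7.29% of all genes.

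By time, no member passed between genotypes in untreated mice or at 18 hours, 6 days or 2 weeks. In untreated mice the median difference was -0.11, with 26 members negative, 0 called (0.0% of all genes) and 0 at an unadjusted p under 0.05. Both knockout arrays lay below both wild type arrays in 12 members, against 21.7% of all genes, and above in 2, Isg15 and Bst2, against 24.2%. Among the 12 were Stat2, Ifit1, Ddx58 and Usp18. At 18 hours the median was 0.017, with 15 members negative, 0 called (0.0% of all genes) and 0 at an unadjusted p under 0.05. Without both replicates 2 it was -0.27, with 27 members negative and 0 called (0.0398% of all genes), on 1 array against 1.

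At 6 days the median difference was -0.37, and 30 members were negative. The count of called members was 0 (0.00664% of all genes), and 12 were lower at an unadjusted p under 0.05, against 2.96% of all genes. Both knockout arrays lay below both wild type arrays in 26 members, against 20.7% of all genes. Trim25 lay above, against 15.8%. After median centring 26 members lay below, with no share of all genes to set beside them. Ifit1 was at -0.67 ± 0.17 (adjusted p = 0.809), Xaf1 at -0.68 ± 0.18 (adjusted p = 0.816), Rtp4 at -0.88 ± 0.29 (adjusted p = 0.919) and Bst2 at -0.87 ± 0.30 (adjusted p = 0.925).

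At 2 weeks the median difference was -0.69, and 32 members were negative. Again 0 members were called (0.182% of all genes), while 27 were lower at an unadjusted p under 0.05, against 12.1% of all genes. Ifit1 (-0.85 ± 0.17, adjusted p = 0.0792), Parp14 (-1.39 ± 0.28, adjusted p = 0.0809), Mx1 (-0.48 ± 0.11, adjusted p = 0.0955), Mx2 (-0.46 ± 0.11, adjusted p = 0.105) and Irf9 (-0.97 ± 0.23, adjusted p = 0.109) were nearest to the threshold. Both knockout arrays lay below both wild type arrays in 29 members, against 22.8% of all genes. Trim25 lay above, against 13.9% of all genes. After median centring 24 members lay below, with no share of all genes to set beside them. Replicate 1, the array without the injury response, lay below both wild type arrays in 32 members, against 38.3% of all genes, and replicate 2, which had that response, in 29, against 40.4%. Leaving out replicate 2 gave 24 called members (17.7% of all genes) and leaving out wild type 2 weeks replicate 1 gave 7 (14.9%). Leaving out replicate 1 and the 18-hour pair gave 0 (0.0199% of all genes), with a median of -0.44. This comparison and the wild type response share the wild type 2-week arrays, so their values are not independent.

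The response itself was not shown to differ between genotypes. In the test of the difference of responses (knockout response minus wild type response), 0 members were called at 18 hours, 6 days or 2 weeks, and 0.0% of all genes at each. The smallest adjusted p in the set was 0.639 at 2 weeks. The medians were 0.11, -0.22 and -0.47, and 0, 2 and 11 members were lower at an unadjusted p under 0.05, against 0.763% of all genes at 6 days and 5.29% at 2 weeks. At 2 weeks the difference of responses was -1.41 ± 0.43 for Bst2 and -1.27 ± 0.40 for Parp14. Leaving out knockout 2 weeks replicate 2 gave 2 calls at 2 weeks (1.77% of all genes) and leaving out wild type 2 weeks replicate 1 gave 1 (5.52%). Leaving out knockout 2 weeks replicate 1 and the 18-hour pair gave 0, with a median of -0.28.

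**Figure D3:**
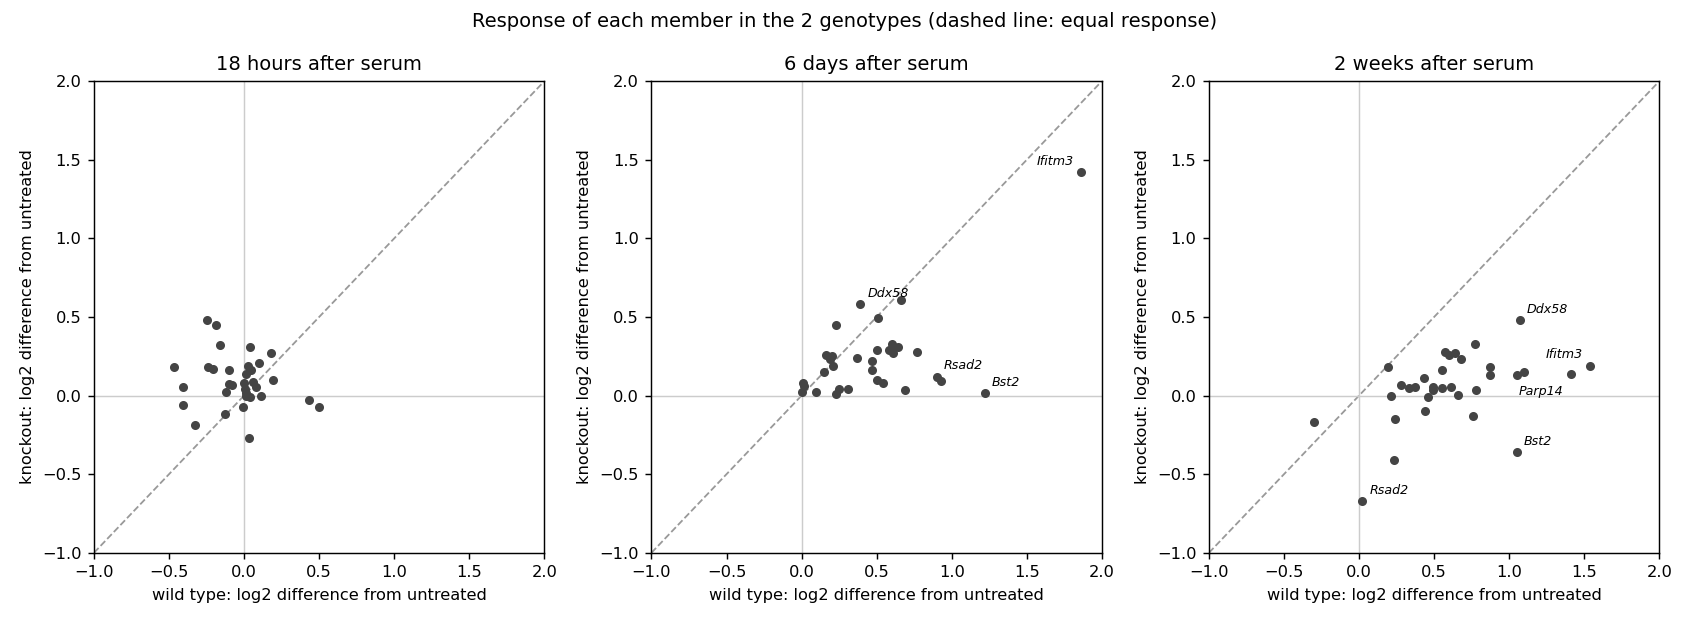
Each point is 1 of 33 members, with its log2 difference from untreated in wild type (horizontal) and in knockout (vertical) at 18 hours, 6 days and 2 weeks after serum, and the dashed line marks equal responses. At 18 hours the points lie around 0, and at 6 days and 2 weeks most lie to the right of 0 and below the line.

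Other genes of the pathway were read from lists chosen from general knowledge. For these and the marker lists below, the share to set beside a count in wild type at 2 weeks is that of all genes. Over 16 arrays it was 4.81% called higher and 3.23% called lower. The receptor and its kinases did not pass at 2 weeks in wild type or in any other comparison (0 of 4 measured, of 5 listed). Their list mean ran from 9.54 to 10.22. Ifnar1 ran from 9.65 to 10.30 and Ifnar2 from 9.32 to 10.70. The ligands were dim, with 14 of 15 measured genes (18 listed) under the median gene, and 4 were called higher in wild type at 2 weeks, Ifna1 (0.56 ± 0.12), Ifna5 (0.45 ± 0.12), Ifna6 (0.54 ± 0.12) and Ifnk (0.53 ± 0.093), with limma adjusted p of 0.0239, 0.0412, 0.0289 and 0.0156. Ifna genes are near-identical copies, so their probesets may not tell them apart, and after median centring 1 ligand was called and after quantile normalization 0. Ifnb1 ran from 4.79 to 5.41.

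Of 16 sensors and adaptors, all measured, 5 were called higher in wild type at 2 weeks and 0 lower. These were Sting1 (1.53 ± 0.40), the adaptor of cytosolic DNA sensing, the RNA sensor Tlr8 (0.66 ± 0.15), the kinase Ikbke (0.77 ± 0.15), the DNA sensor Aim2 (0.44 ± 0.11) and Zc3hav1 (0.79 ± 0.21), which degrades viral RNA. After median centring 1 was higher and 3 lower, and after quantile normalization 1 and 1. Among inhibitors of the pathway 1 of 8 measured (9 listed) was called higher, Socs3 (0.50 ± 0.098), and 0 after either rescaling. Of 30 further type I response genes (32 listed) 3 were called higher, Herc6 (0.83 ± 0.22), Ms4a4c (0.94 ± 0.19) and Ddx60 (0.51 ± 0.12), with 1 after median centring and 2 after quantile normalization. As deposited, 9 of the 33 members and 4.81% of all genes were called higher there. None of these lists had a called gene in the other comparisons over 16 arrays.

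Genes of the interferon gamma pathway, the type II interferon, had more calls. Of 19 measured (24 listed), 11 rose in wild type at 2 weeks and 0 fell, with a median of 0.98, and 9 and 7 were called higher after median centring and quantile normalization. Irf1, a transcription factor induced by interferon gamma, was at 1.10 ± 0.12 (limma adjusted p = 0.00596), the chemokine Cxcl10 at 1.15 ± 0.16 (adjusted p = 0.0101), Ciita, the switch of MHC class II genes, at 0.98 ± 0.11 (adjusted p = 0.00596), and the peptide transporter Tap1 at 1.25 ± 0.25 (adjusted p = 0.0203). At 2 weeks 3 of the list were lower in knockout than in wild type, Irf1 (-1.11 ± 0.12, adjusted p = 0.0231), Cxcl10 (-1.05 ± 0.16, adjusted p = 0.0421) and Ciita (-0.93 ± 0.11, adjusted p = 0.0231). Of the list 1 and 2 were so called after median centring and quantile normalization, and 0 without knockout 2 weeks replicate 1 and the doubted 18-hour pair, where the list's median was -0.91. No gene was counted both here and among the 33 members. Which type of interferon, if any, lay behind the values of this list or of the members was not tested.

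Markers of macrophages and monocytes moved with the members. Their list mean (19 of 19 measured) was 6.49 and 6.39 in untreated wild type, 6.97 and 6.98 at 6 days and 7.29 and 7.39 at 2 weeks. In knockout it was 6.51 and 6.41 untreated, 6.65 and 6.79 at 6 days and 6.39 and 6.81 at 2 weeks. The 18-hour arrays read 6.67 and 6.34 (wild type) and 6.39 and 6.59 (knockout). In wild type at 2 weeks 13 of the 19 rose, among them Lyz2 (3.07 ± 0.41, limma adjusted p = 0.00738) and Tyrobp (1.31 ± 0.17, adjusted p = 0.00653), and 10 and 7 were called higher after median centring and quantile normalization. The macrophage receptor Csf1r had the opposite sign (9.75 and 8.84 untreated, 8.53 and 8.37 at 2 weeks, not called). At 2 weeks 3 were lower in knockout, Lyz2, Tyrobp and Ccr2, and 0 without knockout 2 weeks replicate 1 and the 18-hour pair. The part of these cells in the members' values was not tested.

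The resident glomerular cells differed among the same arrays. In untreated wild type the mesangial list (6 of 9 measured) read 9.40 and 9.02, at 6 days 10.44 and 10.69, and at 2 weeks 10.28 and 10.38. On knockout 2 weeks replicate 1 the lists were at their lowest, with mesangial markers at 8.25, podocyte markers at 9.29 and glomerular endothelial markers (9 of 10 measured) at 9.12, against 9.81, 11.06 and 11.05 on replicate 2. Proximal tubule markers (12 of 12 measured) read 13.51 and 14.58 in wild type at 2 weeks, against 15.93 and 16.41 untreated, and 6 of 12 fell there. On the knockout 2-week arrays they read 16.20 and 14.53. Distal nephron markers (8 of 8 measured) had 1 called lower in wild type at 2 weeks, Slc4a1. Of the 9 endothelial markers 8 were higher there without passing, among them Eng (10.85 and 10.54 untreated, 12.22 and 13.19 at 2 weeks), and 1 was called lower, Plvap. The endothelial list read 10.57 and 10.14 in untreated wild type and 10.77 and 11.67 at 2 weeks. Whether the glomerular share of an extract bears on the members was not tested.

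**Figure D4:**
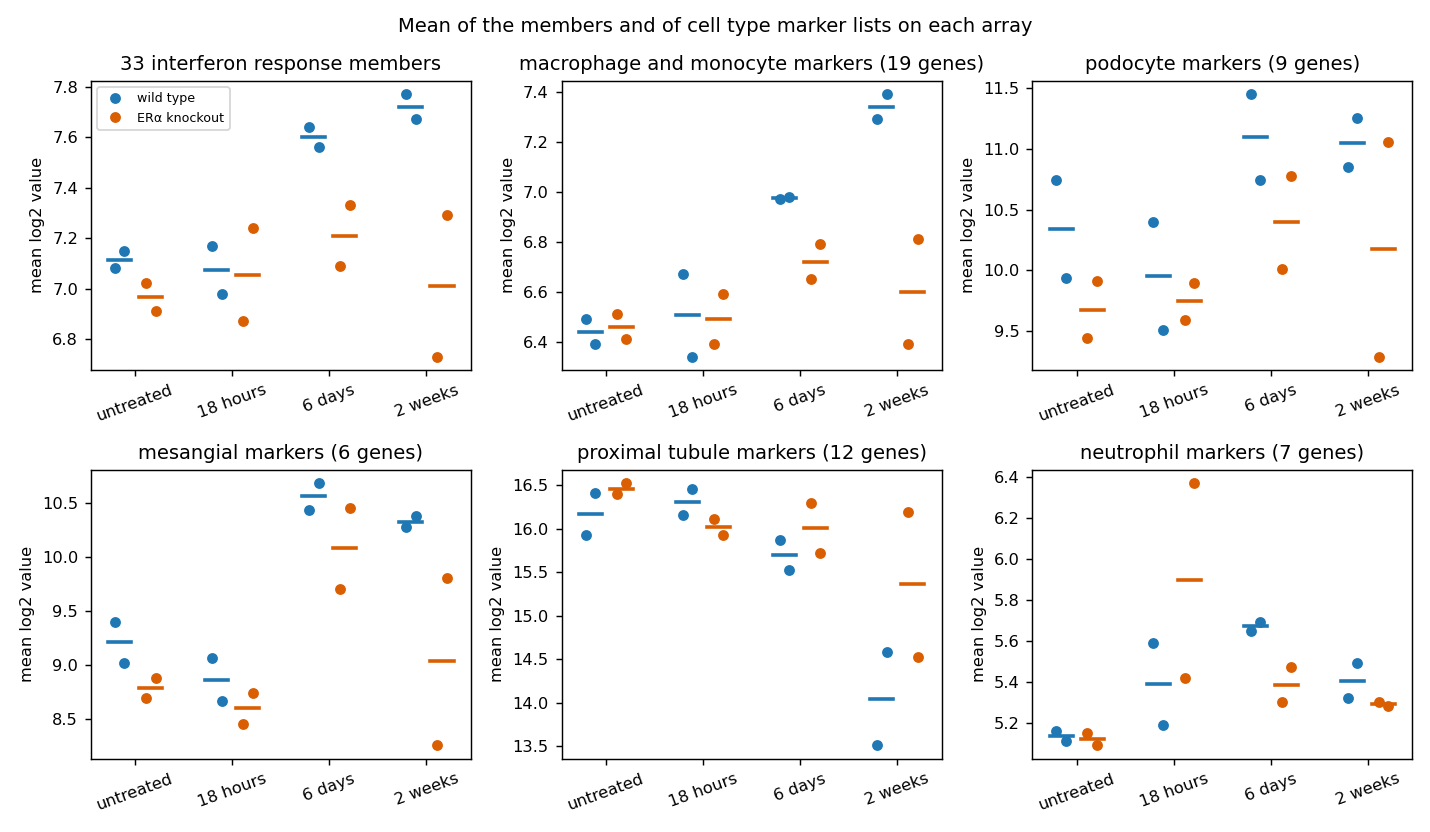
Mean deposited log2 value on each array (blue wild type, orange knockout, bar for the mean of the pair) of the 33 members and of 5 cell type marker lists. In the member and the macrophage and monocyte panels the 4 wild type arrays at 6 days and 2 weeks are the highest, and in the mesangial and podocyte panels knockout 2 weeks replicate 1 is the lowest.

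Markers of other blood cells had few calls. Neutrophil markers (7 of 7 measured) ran from 5.09 to 6.37 and were highest on knockout 18 hours replicate 2. Plasmacytoid dendritic markers (5 of 6 measured, Bst2 left out because it is a member) had 0 calls. Their list mean of 8.70 to 9.13 was set by Klk1, also a kidney kallikrein (17.24 to 19.20), while Siglech, which defines these strong producers of interferon, ran from 6.19 to 6.65. Dendritic markers (6 of 6 measured) had 1 called higher in wild type at 2 weeks and lower in knockout, Itgax (1.08 ± 0.13, limma adjusted p = 0.00596, and -0.96 ± 0.13, adjusted p = 0.0299), the latter not called without knockout 2 weeks replicate 1 and the 18-hour pair. The T and NK cell markers (8 of 9 measured) and B cell markers (4 of 5 measured) all lay under the median gene, with list means of 4.97 to 5.36 and 4.89 to 5.20 and 0 calls. Of the erythroid markers 1 of 4 was measured, Alas2, at 6.06 to 8.56 with 0 calls. Their part in the members' values was not tested.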

How the data were processed

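The authors deposited log2 values for 72688 probesets on 16 arrays, made from 10 ng of RNA with the Affymetrix WT Pico kit, per the labels. The submitters' processing notes name Affymetrix Expression Console and, beside it, Transcriptome Analysis Console. No source used here gives versions, summary method or genome build. Probesets with exactly 1 symbol (30604) were kept and the brightest per gene was taken, leaving 30142 genes with no filter. A limma model (version 3.58.1, R 4.3.3) of 8 group means over 16 arrays, 2 per group, was fitted per gene with an intensity trend (8 residual degrees of freedom). Within a comparison, Benjamini-Hochberg adjustment covered all genes. The procedure was tested on simulated data. Having 2 arrays in a group limits precision. The p-values set a difference against a spread shared by the 8 groups.

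Members, lists and tests were chosen with earlier results of these data known. By rule, per-array values are given for Irf7, Stat2 and Irf9, for every member called in any of the 14 comparisons over all arrays or without doubted arrays, and for the 3 members with the largest absolute difference in the genotype average and in each response to serum, 24 in all. The other 9 are given by range. Related and marker genes are named where they were called or define the list. Alternatives rescaled arrays, left out dim genes, averaged probesets, dropped the trend, fitted only the groups compared, added a replicate block or left out each array. Those without the doubted arrays were added after the data were seen. Promoter sequences are RefSeq's, GRCm38.p6.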

Additional observations from a re-analysis of the deposited data

Results flagged for a closer look

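Ifit1 and Bst2 stood apart in the deposited values. For each gene, both wild type arrays at 2 weeks lay above both untreated wild type arrays, while both knockout arrays at 2 weeks lay below both untreated knockout arrays. The median over all genes was 5.94 and 5.96 on the untreated wild type arrays and 6.09 and 6.22 at 2 weeks. After median centring the wild type pairs of Ifit1 overlapped and those of Bst2 did not. The share of all genes with this opposite pattern was not counted. For Ifit1 the difference of responses at 2 weeks (knockout minus wild type) was -0.64 ± 0.24 (SE; limma adjusted p = 0.639). For Bst2 it was -1.41 ± 0.43 (adjusted p = 0.639). Both genes fail the test over all genes. For Ifit1 the 2 responses were 0.23 ± 0.17 in wild type and -0.41 ± 0.17 in knockout, and for Bst2 they were 1.05 ± 0.30 and -0.36 ± 0.30. Bst2 is also a marker of plasmacytoid dendritic cells.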

How the results depend on the processing

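Alternatives changed counts of called members in few comparisons. The share of all genes called stands beside most of these counts above. It was not set beside those for wild type at 2 weeks with only the groups compared or with 12 arrays. Nor was it for knockout at 2 weeks without replicate 1. A count without that share is not a result about the members. For wild type at 2 weeks (9 called) median centring gave 2, quantile normalization 2, fitting only the groups compared 2, 14 arrays 1, 12 arrays 1 and 13 arrays 18. For knockout minus wild type averaged over times (0 called) 14 arrays gave 2, 13 arrays 4 and 12 arrays 2. For knockout at 2 weeks (0 called) 13 arrays gave 2. The 14 arrays leave out both 18-hour replicates 2, the 13 also knockout 2 weeks replicate 1, and the 12 all 18-hour arrays. Leaving out each array in turn gave 0 to 19 for the genotype average, 0 to 24 for knockout minus wild type at 2 weeks, 0 to 17 for wild type at 2 weeks, 0 to 1 for knockout at 2 weeks and 0 to 2 for the difference of responses at 2 weeks. The highest counts came without knockout 2 weeks replicate 2, or without either knockout 2-week array for wild type at 2 weeks, and without replicate 1 for knockout at 2 weeks. In knockout at 2 weeks, Ifit2 (-0.54) and Ddx58 (-0.21) turned negative without knockout 2 weeks replicate 2, and were called at 1.05 and 1.18 without replicate 1 and the doubted 18-hour arrays. The cause of these changes was not tested. Over all comparisons and alternatives, 336 counts stayed within 1.5 times the reported one and 23 did not. Counts of 0 that stayed 0 were among the 336, so this tally does not measure how firm the wild type calls at 2 weeks were.

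A replicate block gave 9 called members for wild type at 2 weeks and 0 in the other comparisons, and changed no count. Same-numbered arrays are from different mice. The correlation of replicate 2 minus replicate 1 between groups ran from -0.68 to 0.59 (median 0.04 over 28 pairs of groups). It was over 0.1 in 11 of these pairs. The numbers thus showed no pairing common to all groups. Whether some same-numbered arrays shared their handling was not tested. With 2 arrays per group, and 7 members dimmer than the median gene, small differences were not detectable. The 7 were Isg15, Oasl1, Zbp1, Dhx58, Oas2, Mx1 and Mx2. Dhx58, Oas2, Mx1 and Mx2 were among the members called in wild type at 2 weeks.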
